A study of Mus musculus with 4 samples.

Results

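Elastic fibres of connective tissue consist of a core of cross-linked elastin laid on bundles of fibrillin microfibrils. Microfibrils also carry small associated glycoproteins and bind the latent TGF-beta binding proteins, which tether inactive TGF-beta in the matrix. The dental follicle, a mesenchymal tissue that surrounds the forming tooth, gives rise to the periodontal ligament, whose elastic system is known mainly for oxytalan fibres, microfibril bundles with little or no elastin. The 10 genes described here were chosen by symbol as fibrillins (Fbn1, Fbn2), elastin (Eln), microfibril and elastin-binding glycoproteins (Mfap2, Mfap4, Mfap5, Emilin1, Fbln5) and latent TGF-beta binding proteins (Ltbp1, Ltbp2). All 10 were found among the 23107 genes of the deposited tables, and all 10 passed the filter on low values in every library.

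RNA came from tdTomato-positive cells, labelled as PTHrP+ dental follicle cells, that were sorted from enzymatically dissociated follicles of mouse mandibular molars at postnatal day 8, after tamoxifen at postnatal day 3. Conditional knockouts for the hedgehog receptor gene Ptch1, labelled Ptch1(-/-) and called cKO here (n = 2 libraries), were set against conditional heterozygotes, labelled Ptch1(+/-) and called cHet (n = 2 libraries). The control cells thus also carry a targeted Ptch1 copy, and no group with intact Ptch1 was analysed here. The labels used here name neither the driver of the tamoxifen-inducible recombinase nor the sex of the mice, nor whether molars of several mice were pooled. The labels do not tie the libraries of a group to different mice, and the p-values reflect only how these libraries vary, which can be partly technical variation. Libraries are named cKO_0, cKO_1, cHet_0 and cHet_1 as in the deposited tables.

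Values are scaled counts, the authors' gene counts divided by a factor per library, unless FPKM (fragments scaled to transcript length and library size, comparable between genes) is named. A log2 fold change is the limma estimate, with cKO minus cHet as its direction, after a log2(scaled count + 3) transform, SE is its moderated standard error and the interval is at the 95% level. The scaled totals lay between 69361760 and 71228342 per library, and 12192 and 11355 genes had an FPKM of at least 1 in cKO_0 and cKO_1, against 12360 and 9850 in cHet_0 and cHet_1. The targeted gene Ptch1 was listed at 22420 and 23341 in cKO and at 12867 and 5438 in cHet, the hedgehog target Gli1 at 6388 and 6955 in cKO and at 4132 and 3350 in cHet, and Hhip, another target, at 175453 and 160516 in cKO and at 62357 and 60651 in cHet. A gene-level value of Ptch1 does not show whether an exon was deleted. Library cHet_1 stood apart, with a correlation across genes of 0.753 with cKO_0, 0.742 with cKO_1 and 0.791 with cHet_0, where the other pairs had 0.811 to 0.893. Of the follicle and ligament markers, Pthlh, Postn, Tnmd, Aspn and Col12a1 were at 4942 or more in every library, whereas the tendon and ligament factor Scx was at 1.08 and 128 in cKO and at 86.6 and 276 in cHet.

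The stretches just before the starts of 4 of the genes are shown because every cKO library exceeded every cHet library in Fbln5 and Mfap2, Ltbp2 was lower, and Ltbp1, from the same family as Ltbp2, overlapped. They are from RefSeq (GRCm38.p6), 5′ to 3′ on the gene's own strand, without bases that GENCODE places inside the gene. Capitals mark a GC box, GGGCGG on either strand.
Fbln5, chr12:101819120-101819369, minus strand: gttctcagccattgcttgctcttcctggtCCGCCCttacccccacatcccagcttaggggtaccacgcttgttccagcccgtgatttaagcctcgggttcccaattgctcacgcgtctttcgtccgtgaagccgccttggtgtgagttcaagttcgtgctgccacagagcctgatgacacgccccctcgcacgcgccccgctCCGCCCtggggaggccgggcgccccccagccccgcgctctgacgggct
Mfap2, chr4:141010174-141010417, plus strand: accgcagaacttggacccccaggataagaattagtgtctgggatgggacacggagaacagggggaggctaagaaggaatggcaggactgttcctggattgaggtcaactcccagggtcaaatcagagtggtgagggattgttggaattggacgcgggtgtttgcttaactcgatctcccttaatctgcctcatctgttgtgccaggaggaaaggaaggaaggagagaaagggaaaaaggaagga
Ltbp2, chr12:84876533-84876741, minus strand: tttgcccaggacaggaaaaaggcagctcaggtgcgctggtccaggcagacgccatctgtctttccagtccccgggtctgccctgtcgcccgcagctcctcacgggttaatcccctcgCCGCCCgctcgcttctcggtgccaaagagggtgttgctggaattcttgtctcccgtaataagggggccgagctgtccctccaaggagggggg
Ltbp1, chr17:75005279-75005528, plus strand: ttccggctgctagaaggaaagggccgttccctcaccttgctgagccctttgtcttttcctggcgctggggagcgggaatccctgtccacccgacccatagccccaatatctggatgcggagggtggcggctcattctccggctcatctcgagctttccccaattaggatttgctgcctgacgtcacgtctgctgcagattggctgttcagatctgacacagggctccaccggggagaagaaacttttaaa
In all, 6 of the 10 genes matched the RefSeq table, with 9 windows of 250 bases before a start, and Eln, Fbn2, Mfap4 and Mfap5 did not. A GC box lay in 4 of the 9 windows, in Fbn1, Mfap2 (a second window), Fbln5 and Ltbp2, against 32.7% of all 32851 windows of the same length. The hedgehog effector motif GACCACCCA, searched on both strands, was in 0 of the 9 windows and in 0.225% of all windows. The TATA motif TATAAA was in 0 of the 9 windows and in 12.4% of all. Only GC boxes were found in these windows, so no matches of different motifs overlap, and a match or its absence in such a window is a description only.

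The 2 fibrillin genes, which encode the backbone of the microfibril, overlapped between cKO and cHet. Fbn1 (chromosome 2, 125300594 to 125507993, minus strand, mm10), the fibrillin of most postnatal tissues, was at 36427 and 31535 in cKO and at 35132 and 41556 in cHet. Its groups overlapped, with the highest value in cHet_1 and the lowest in cKO_1. The log2 fold change was -0.17 (SE 0.23, interval -0.71 to 0.36, limma adjusted p = 0.931), so that a change larger than 1.29-fold up or to below 0.612-fold lay outside the interval. It was -0.05 without cHet_1, -0.07 without cKO_1, -0.29 without cHet_0 and -0.28 without cKO_0. Fbn2 (chromosome 18, 58008623 to 58210487, minus strand), the fibrillin best known from developing tissue, was at 39922 and 25047 in cKO and at 31694 and 40555 in cHet. The cKO libraries differed 1.59-fold from each other and enclosed cHet_0 between them. Its log2 fold change was -0.18 (SE 0.29, interval -0.85 to 0.49, limma adjusted p = 0.949), and it was 0.16 without cKO_1 and -0.52 without cKO_0. The ratio of Fbn1 to Fbn2 in scaled counts was 0.912 and 1.26 in cKO and 1.11 and 1.02 in cHet, and its groups overlapped.

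Elastin was higher in cKO without overlap, although it did not pass the test over all genes. Eln (chromosome 5, 134702593 to 134747323, minus strand), which encodes tropoelastin, was at 16335 and 17723 in cKO and at 10448 and 11823 in cHet. Both cKO libraries lay above both cHet libraries, the lower cKO value by 38.2% over the higher cHet value, and libraries of a group differed 1.09-fold in cKO and 1.13-fold in cHet. The log2 fold change was 0.61 (SE 0.25, interval 0.04 to 1.18), 1.53-fold, with an unadjusted limma p of 0.0378 and an adjusted p of 0.913. In FPKM the groups did not overlap either, at 66.9 and 67.9 in cKO and at 42.0 and 52.6 in cHet. Leaving out a single library gave log2 fold changes from 0.53 to 0.70.

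Of the genes whose products sit on microfibrils or at the elastin surface, Mfap2, Mfap4, Emilin1 and Fbln5 were higher in cKO with no overlap of the libraries, and Mfap5 overlapped. Fbln5 (chromosome 12, 101746565 to 101819055, minus strand) encodes fibulin-5, which binds tropoelastin and brings it to microfibrils. It was at 30322 and 27635 in cKO and at 21655 and 18350.4 in cHet, so that the lower cKO value exceeded the higher cHet value by 27.6%. The log2 fold change was 0.54 (SE 0.23, interval 0.00 to 1.08), with an unadjusted limma p of 0.0498 and an adjusted p of 0.913. In FPKM Fbln5 overlapped, at 73.9 and 30.9 in cKO and at 53.5 and 18.2 in cHet, with both libraries numbered 0 above both numbered 1.

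Mfap4 (chromosome 11, 61485431 to 61488900, plus strand) encodes a glycoprotein that binds elastin and fibrillin. It was at 49767 and 41920.4 in cKO and at 33611 and 34550.3 in cHet, and the cHet libraries differed by only 1.03-fold. Its log2 fold change was 0.42 (SE 0.23, interval -0.10 to 0.95, limma adjusted p = 0.913). Mfap4 overlaps the end of Mapk7 on the opposite strand, and the labels do not say whether the counts took account of strand. Mapk7 was at 7419 and 4422 in cKO and at 5670 and 6973 in cHet, far below Mfap4 in each library and with overlap between the groups.

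Emilin1 (chromosome 5, 30913402 to 30921277, plus strand) encodes a glycoprotein of the border between elastin and microfibrils that also restrains TGF-beta processing. It was at 51641 and 50675 in cKO and at 40627 and 41886 in cHet. These were the tightest replicates among the 10 genes in cKO, 1.02-fold apart. The log2 fold change was 0.31 (SE 0.22, interval -0.19 to 0.81, limma adjusted p = 0.913). This SE is wider than the values of Emilin1 alone would give, because limma draws each gene's spread toward that of genes of like abundance. In FPKM its groups overlapped, at 221 and 246 in cKO and at 168 and 228 in cHet.

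Mfap2 (chromosome 4, 141010418 to 141015984, plus strand) and Mfap5 (chromosome 6, 122505845 to 122529290, plus strand) encode the related microfibril-associated glycoproteins that bind fibrillin. Mfap2 was at 51786 and 42138 in cKO and at 41376 and 31858 in cHet. The groups did not overlap, but the lower cKO value was only 1.84% above the higher cHet value. The log2 fold change was 0.36 (SE 0.25, interval -0.21 to 0.94, limma adjusted p = 0.913), and 0.18 without cHet_1. In FPKM Mfap2 was at 827 and 869 in cKO and at 638 and 668 in cHet, without overlap and with a wider gap. That gap lies between cKO_0 and cHet_1, whose FPKM per scaled count of Mfap2 differed, at 1.04 and 1.36 relative to cHet_0. Mfap5 was the least abundant of the 10 by scaled count, at 805 and 2161 in cKO and at 1059 and 315 in cHet. It varied more within groups than any other of the 10, 2.68-fold between the cKO libraries and 3.36-fold between the cHet libraries. Its log2 fold change of 1.19 (SE 1.09, interval -1.32 to 3.69, limma adjusted p = 0.913) was 0.32 without cHet_1, 0.48 without cKO_1, 2.06 without cHet_0 and 1.90 without cKO_0.

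The latent TGF-beta binding protein genes differed from each other. Ltbp2 (chromosome 12, 84783212 to 84876532, minus strand) encodes a family member that binds fibrillin microfibrils but not latent TGF-beta. It was at 1921 and 2361 in cKO and at 5362 and 4199.6 in cHet. Both cKO libraries lay below both cHet libraries, and the higher cKO value was 43.8% below the lower cHet value. Its log2 fold change was -1.15 (SE 0.43, interval -2.14 to -0.17), 0.449-fold, with an unadjusted limma p of 0.027 and an adjusted p of 0.913. In FPKM it was at 4.08 and 5.56 in cKO and at 11.1 and 10.1 in cHet, also without overlap. An antisense gene listed in the tables, D030025P21Rik, overlaps the start of Ltbp2 (84875769 to 84879755, plus strand) and was at 203 and 205 in cKO and at 501 and 432 in cHet, lower in cKO as Ltbp2 was. Without knowledge of strand, reads from the stretch that both genes cover, 84875769 to 84876532, cannot be told apart. Leaving out a single library moved the Ltbp2 log2 fold change between -1.33 and -0.98. Ltbp1 (chromosome 17, 75005568 to 75392512, plus strand), which tethers latent TGF-beta to the matrix, was at 22846 and 19959.9 in cKO and at 20787 and 16219 in cHet. Its groups overlapped, with a log2 fold change of 0.22 (SE 0.25, interval -0.36 to 0.79, limma adjusted p = 0.921), and of 0.04 without cHet_1.

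**Figure D1:**
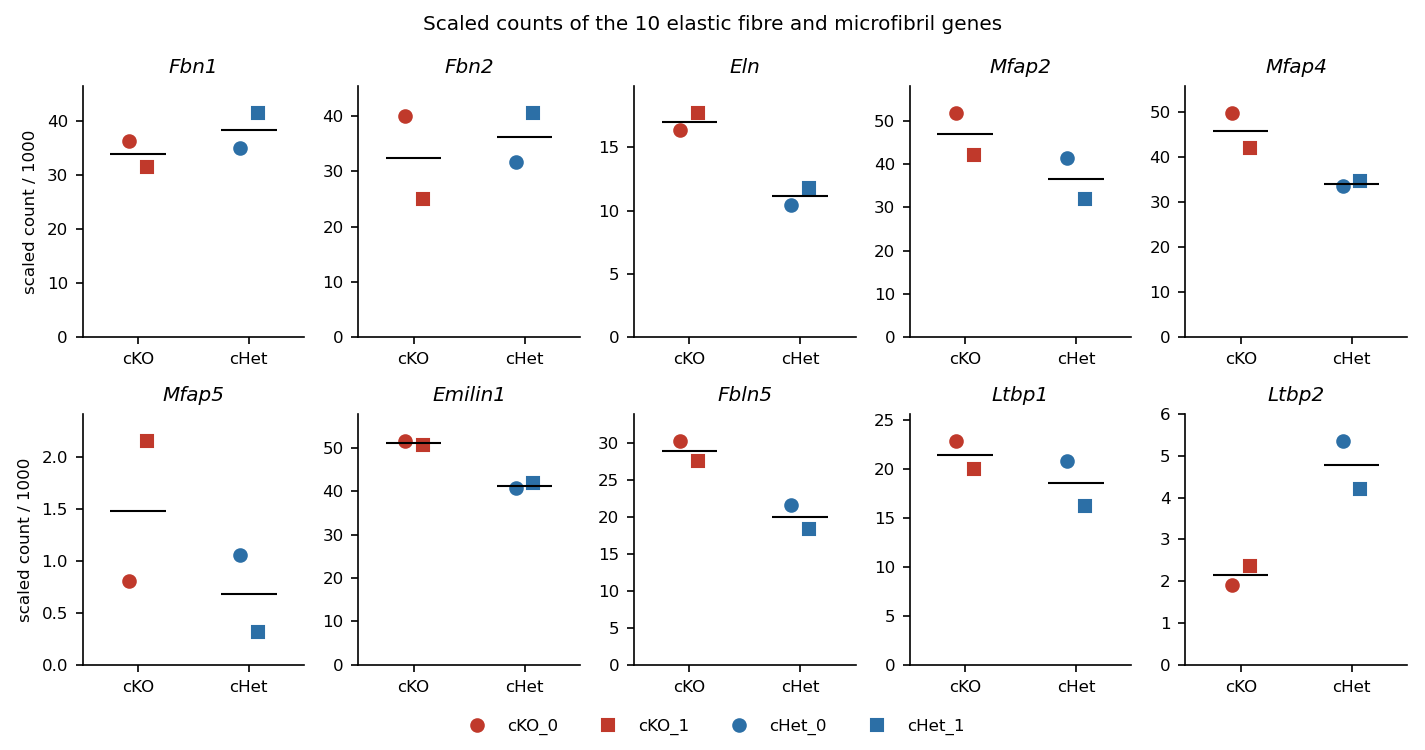
Scaled counts (divided by 1000, linear axis from 0) of the 10 genes in each library, circles for libraries numbered 0 and squares for those numbered 1, with cKO left of cHet and a line at each group's mean. Eln, Mfap2, Mfap4, Emilin1 and Fbln5 lie higher in cKO and Ltbp2 lower without overlap, while Fbn1, Fbn2, Mfap5 and Ltbp1 overlap.

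Counted together, 5 of the 10 genes were higher in cKO with groups that did not overlap, where 18% of all 14297 genes tested were, and 1 was lower, where 14.2% were. In FPKM, 3 of the 10 (Eln, Mfap2 and Mfap4) were higher without overlap, where 11.2% of 12278 genes were, and 1 (Ltbp2) was lower, where 8.75% were. The median log2 fold change of the 10 was 0.34, against 0.12 over all genes tested. In limma 0 of the 10 passed an adjusted p of 0.05, as 0 genes of the whole table did in either direction (0% higher and 0% lower). At an unadjusted limma p under 0.05 stood Eln and Fbln5 on the higher side and Ltbp2 on the lower, where 1.54% of all genes were higher and 1.49% lower. This depended on the setting. With median-of-ratios scaling the unadjusted limma p was 0.104 for Eln, 0.110 for Fbln5 and 0.020 for Ltbp2. On log2(FPKM + 1) it was 0.372, 0.375 and 0.318, and with a pseudocount of 1 on scaled counts 0.0387, 0.0501 and 0.0268, in the same order. A two-sided exact permutation test of 2 against 2 libraries cannot give a p below 0.333. Between the libraries of a group, the median absolute log2 difference of the 10 was 0.23 in cKO and 0.30 in cHet. Over all genes, which include many of far lower abundance, it was 0.58 and 0.87. Genes of like abundance were not compared. In scaled counts the 10 made up 0.433% and 0.369% of the total in cKO and 0.349% and 0.339% in cHet. In FPKM the shares overlapped, at 0.4298% and 0.4463% in cKO and at 0.3297% and 0.4494% in cHet, with the highest in cHet_1.

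**Figure D2:**
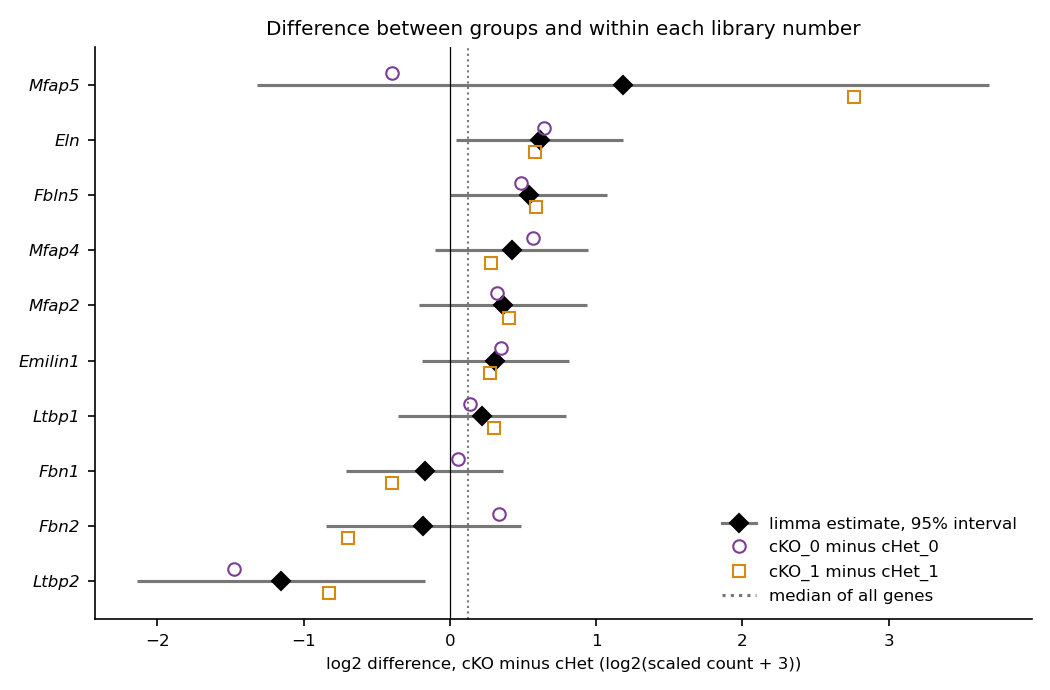
Log2 difference between cKO and cHet on the log2(scaled count + 3) scale for each gene, as the limma estimate with its 95% interval (diamonds) and as the difference between the libraries numbered 0 (circles) and between those numbered 1 (squares). The intervals of Eln and, only just, Fbln5 lie above 0, and that of Ltbp2 lies below 0. Fbn1, Fbn2 and Mfap5 have differences of opposite sign in the library numbers.

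Libraries with the same number shared a property of the deposited tables. The FPKM given per scaled count, taken relative to cHet_0 for each gene, had a median over 12080 genes of 0.997 in cKO_0, but of 0.624 in cKO_1 and 0.583 in cHet_1, with quartiles of 0.439 and 0.876 in cKO_1 and of 0.387 and 0.870 in cHet_1. Among the genes described here it was 0.453 in cKO_1 and 0.402 in cHet_1 for Fbln5, and 0.567 and 0.510 for Ltbp1. For Mfap2 it went the other way, at 1.34 in cKO_1 and 1.36 in cHet_1. It was also above 1 in these libraries for Emilin1 (1.17 and 1.32), Ltbp2 (1.14 and 1.16) and Mfap4 (1.11 and 1.05). For Eln it was 0.952 and 1.11. An FPKM difference between libraries of unlike number includes this factor, whose cause was not tested.

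Within each number the scaled counts gave the same direction for 7 of the 10 genes. Eln was higher by 0.64 log2 units in cKO_0 than in cHet_0 and by 0.58 in cKO_1 than in cHet_1. Fbln5 was higher by 0.49 and 0.59, Mfap4 by 0.57 and 0.28, Mfap2 by 0.32 and 0.40, Emilin1 by 0.35 and 0.27 and Ltbp1 by 0.14 and 0.30, for the numbers 0 and 1 in that order. Ltbp2 differed by -1.48 and -0.83. Thus 6 of the 10 were higher within both numbers, where 30% of all genes were, and 1 was lower within both, where 22.1% were. Fbn1 differed by 0.05 and -0.40, Fbn2 by 0.33 and -0.70 and Mfap5 by -0.39 and 2.77. The median over the 10 was 0.33 for number 0 and 0.29 for number 1, against 0.01 and 0.21 over all genes.

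**Figure D3:**
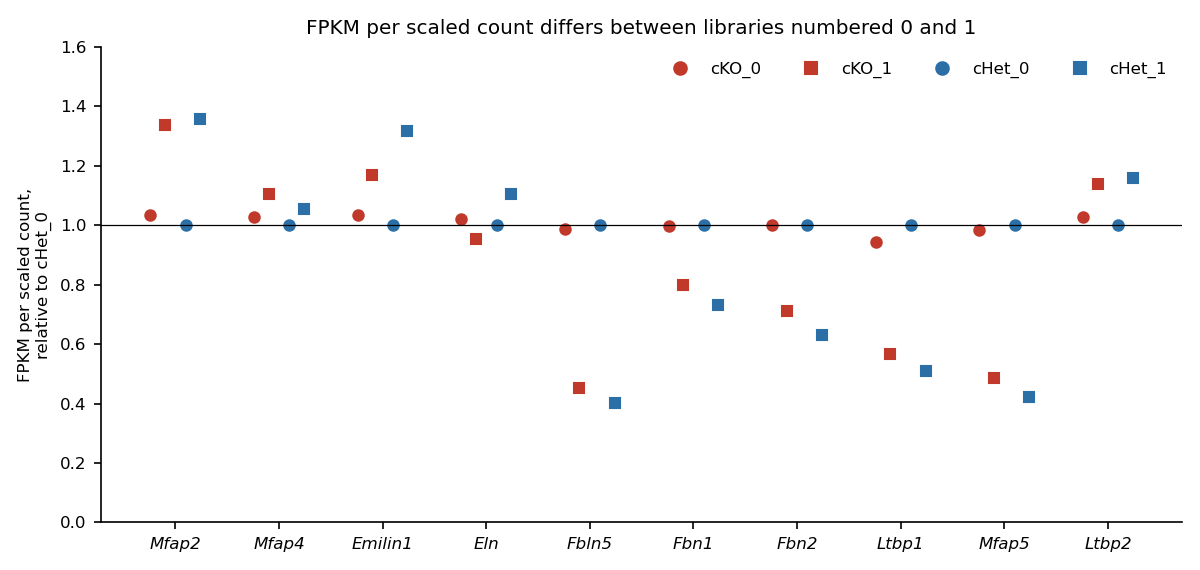
FPKM per scaled count of each gene relative to library cHet_0 (linear axis), with genes ordered by mean FPKM. The libraries numbered 0 sit near 1 for each gene, while those numbered 1 fall to 0.453 (cKO_1) and 0.402 (cHet_1) for Fbln5 and rise to 1.34 and 1.36 for Mfap2.

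Per transcript length, Mfap2, Mfap4 and Emilin1 were far above the fibrillins, whereas Mfap5 was below them. Mfap2 had the highest FPKM of the 10 in every library, from 638 to 869, followed by Mfap4 from 342 to 521 and Emilin1 from 168 to 246, and these ranges did not overlap. Mfap2 lay above about 99.8% of all listed genes in each library. Eln (42.0 to 67.9), Fbln5 (18.2 to 73.9), Fbn1 (34.1 to 49.2), Fbn2 (23.3 to 52.3) and Ltbp1 (15.7 to 41.1) followed with ranges that overlapped from each to the next. Mfap5 (1.54 to 12.2) and Ltbp2 (4.08 to 11.1) were lowest and overlapped each other, and lay below the range of Ltbp1. Mfap2 alone made up 44.3% and 48.8% of the summed FPKM of the 10 in cKO and 45.7% and 46.4% in cHet.

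Ratios between these genes within a library do not depend on a factor that scales the whole library. In FPKM they still include the FPKM per scaled count, which differed by gene in the libraries numbered 1. The pairs were chosen after the values were seen and are given as a description. In scaled counts, Eln stood to Fbn1 at 0.448 and 0.562 in cKO and at 0.297 and 0.285 in cHet, and in FPKM at 1.36 and 1.99 in cKO and at 0.882 and 1.28 in cHet. Neither overlapped between the groups. The scaled counts of Ltbp1 stood to those of Ltbp2 at 11.9 and 8.45 in cKO and at 3.88 and 3.86 in cHet. By contrast, the ratio of Fbln5 to Eln overlapped, at 1.86 and 1.56 in cKO and at 2.07 and 1.55 in cHet, as did that of Mfap4 to Eln, at 3.05 and 2.37 in cKO and at 3.22 and 2.92 in cHet.

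**Figure D4:**
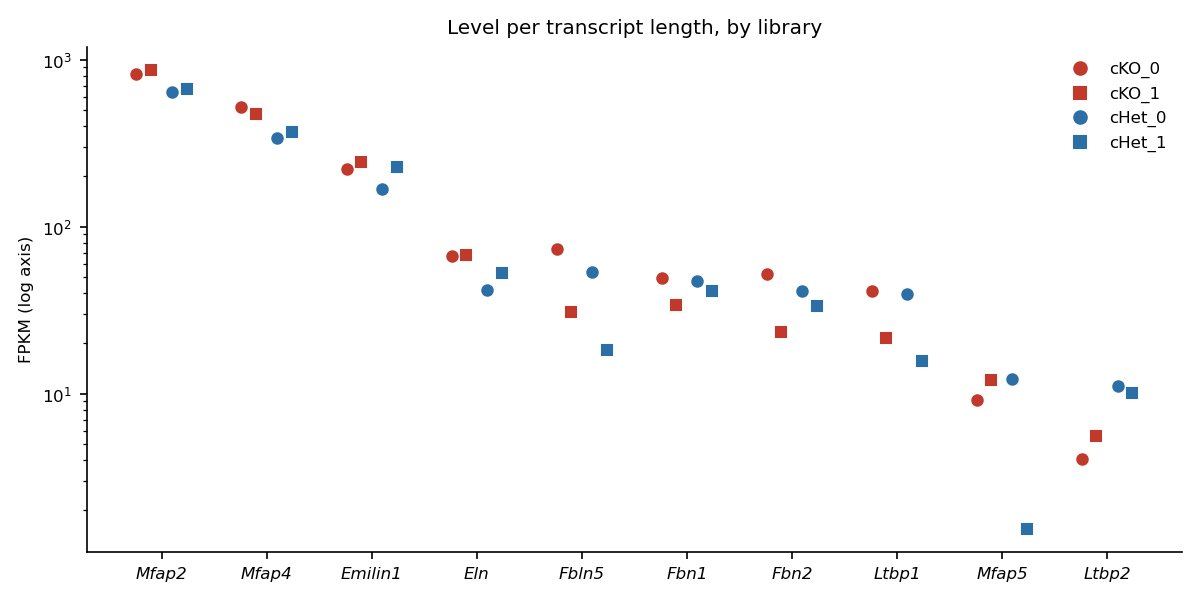
FPKM of the 10 genes by library on a log axis, ordered by mean level. Mfap2, Mfap4 and Emilin1 form separate steps at the top, and Ltbp2 is lower in both cKO libraries, at 4.08 and 5.56, than in both cHet libraries, at 11.1 and 10.1.

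Of 24 further genes for assembly and cross-linking of elastic fibres, 23 were tested and 0 passed in either direction in limma, with 0 at an unadjusted p under 0.05. Their log2 fold changes were positive for 12 and negative for 11 (median 0.05), and 6 were higher and 3 lower without overlap, where 18% and 14.2% of all genes were. The lysyl oxidase Lox, which cross-links elastin and collagen, was at 19639 and 21530.4 in cKO and at 20224 and 19581 in cHet. Its relative Loxl1, needed for elastic fibre upkeep in mice, was at 10946 and 9327 in cKO and at 9742 and 5693 in cHet. The remaining latent TGF-beta binding protein genes overlapped between groups, with Ltbp3 at 30053 and 37759 in cKO and at 36303 and 37862 in cHet (log2 fold change -0.14), and Ltbp4 at 51241 and 53629 in cKO and at 51606 and 60633 in cHet (-0.09). Lox, Loxl1, Ltbp3 and Ltbp4 were named outside the rule, for their roles, after their values were seen.

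Of the 6 genes of that list with the lowest p, Emilin3, Loxl3 and Fbln1 had their lowest value in cHet_1, and Loxl4 and Loxl2 their highest. Emilin3, a relative of Emilin1, was at 1172 and 665 in cKO and at 147 and 4.19 in cHet, and Loxl3, another lysyl oxidase gene, at 3619 and 3151 in cKO and at 2928 and 48.1 in cHet. Fbln1, which encodes fibulin-1, was at 32556 and 29525 in cKO and at 28542 and 14746 in cHet. Tgm2, a transglutaminase that cross-links fibrillin, was at 9091 and 13285 in cKO and at 6883 and 7398 in cHet (log2 fold change 0.62, SE 0.30, limma adjusted p = 0.913). Loxl4 was at 217 and 1599 in cKO and at 1361 and 5906 in cHet, and Loxl2 at 14945 and 13679 in cKO and at 14918 and 26294 in cHet. Loxl4 and Loxl2 overlapped between the groups.

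The TGF-beta genes and the integrin genes whose products bind microfibrils or latent TGF-beta mostly had lower values in cKO. Of 11 tested, 10 had a negative log2 fold change (median -0.43), 5 were lower without overlap and 0 were higher, where 14.2% and 18% of all genes were, and 0 passed in limma. Itgav, the integrin subunit that pairs with several beta subunits to bind latent TGF-beta and fibrillin, was at 7618 and 6556 in cKO and at 9923 and 13457 in cHet (log2 fold change -0.71, SE 0.29, limma adjusted p = 0.913). Tgfb1 was at 6639 and 8799 in cKO and at 12359 and 10666 in cHet (-0.59), and Tgfb3 at 21169 and 18523 in cKO and at 24148 and 25705 in cHet (-0.33). Among 6 tested genes for enzymes that degrade elastic fibres or activate such enzymes, 1 was higher and 1 lower without overlap, where 18% and 14.2% of all genes were, and 0 passed in limma. Mmp9, a gelatinase that also cuts elastin, was at 7325 and 11833 in cKO and at 2371 and 1731 in cHet (2.2 log2 units, SE 0.41, adjusted p = 0.913 in limma), and Mmp2, its relative, at 71037 and 55117 in cKO and at 77344 and 95243 in cHet (-0.46). Ctsk, a cathepsin of osteoclasts, overlapped at 9508 and 13765 in cKO and at 10706 and 18158 in cHet.

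**Figure D5:**
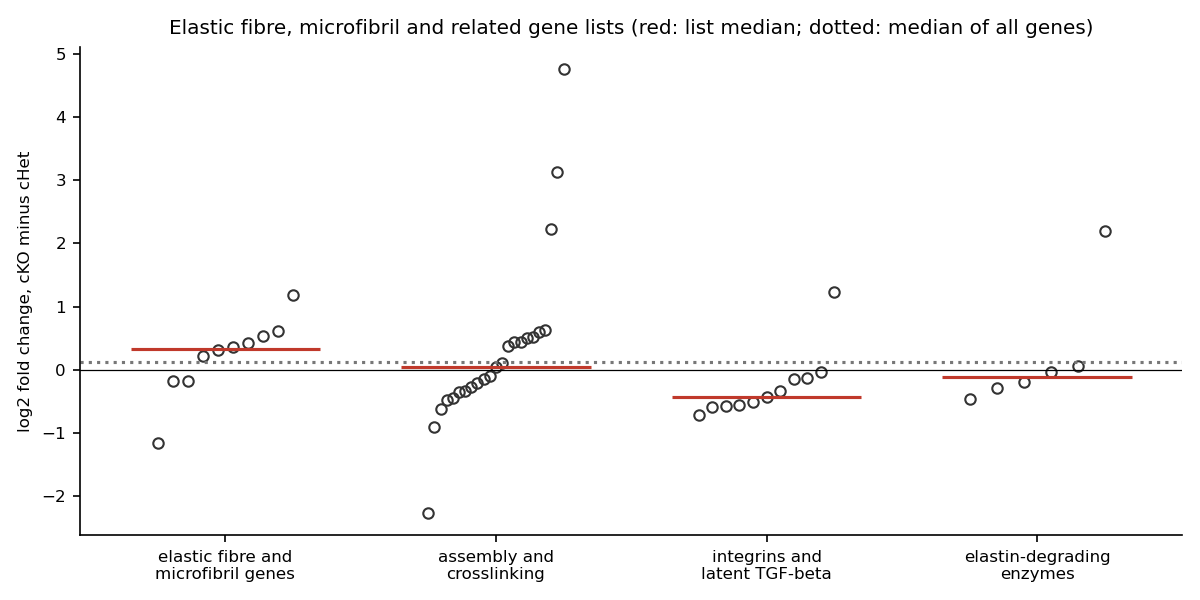
Log2 fold changes (cKO minus cHet) of the tested genes of each list, sorted from low to high within a list, with the list median in red and the median of all 14297 genes dotted. The medians are 0.34 for the 10 genes described here, 0.05 for assembly and cross-linking genes, -0.43 for integrin and TGF-beta genes and -0.11 for degrading enzymes.

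The sums of markers of other cells are given here as values, with no test. Of 8 smooth muscle and pericyte markers, 7 had a positive log2 fold change (median 0.40; -0.10 between the libraries numbered 0 and 0.50 between those numbered 1), and their summed scaled counts were 100756 and 115225 in cKO and 95989 and 89379 in cHet, without overlap, with no marker at 0. Pdgfrb, which fibroblasts also express, was the only marker of these 8 that was higher without overlap, at 24063 and 23555 in cKO and at 17720 and 17193 in cHet. With Pdgfrb taken out, the sum of the other markers overlapped between the groups. Notch3, a pericyte and smooth muscle receptor gene, was lower without overlap, at 2359 and 2255 in cKO and at 2712 and 8026 in cHet, and Acta2, the smooth muscle actin gene, overlapped at 52358 and 61932 in cKO and at 52635 and 49616 in cHet. Summed endothelial markers (6 genes) were at 2845 and 7723 in cKO and at 2271 and 4137 in cHet, with overlap, and with Emcn at 0 in cKO_0 and Pecam1 at 0 in cHet_0. Schwann cell markers (6 genes) summed to 6824 and 22693.5 in cKO and to 3012 and 687 in cHet. Macrophage and leukocyte markers (6 genes) overlapped, at 642 and 4402 in cKO and at 819 and 2505 in cHet, with the macrophage marker Adgre1, listed as Emr1, at 0 in cKO_0 and the leukocyte marker Ptprc at 0 in cHet_1. In the other direction, 6 follicle and ligament markers summed to 120984 and 116068 in cKO and to 179081 and 312492 in cHet. All 6 had a negative log2 fold change. Only Postn and Col12a1 were lower without overlap, and Pthlh, Tnmd, Aspn and Scx overlapped. The 3 odontoblast markers summed to 804 and 12931 in cKO and to 47699 and 74821 in cHet. Dspp and Phex were lower without overlap, whereas Dmp1 overlapped, at 478 and 3341 in cKO and at 16999 and 1534 in cHet. Summed dental epithelium markers (7 genes) were at 910277 and 2564082 in cKO and at 529842 and 1223619 in cHet. Ambn and Amelx made up most of that sum in each library. Of these 7 markers, 4 had a positive and 3 a negative log2 fold change. Only Epcam did not overlap, lower at 621 and 1002 in cKO than at 4828 and 2448 in cHet. The 4 osteoblast markers summed to 222007 and 229260 in cKO and to 216359 and 301104 in cHet. The epithelium and osteoblast sums both overlapped between the groups. The part of such cells in the values of the 10 genes was not tested, and in sorted bulk RNA fewer cells of a type and less RNA per cell cannot be told apart.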

How the data were processed

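Total RNA of 4 sorted libraries was amplified with SMART-Seq v4 and made into Nextera XT libraries, per the labels' protocols. The submitters' processing notes name the build mm10 and, without saying what each did, the tools DESeq2, HTSeq, Cuffdiff, Cufflinks, FastQC, Bowtie2 (2.2.1) and TopHat2 (2.0.13). The authors deposited a signal unit, scaled counts (gene counts divided by a factor per library, set in a way not given in the sources used here), and an FPKM table. Their values are not whole reads, so no count test was run, and read depth is unknown. Another 4 tables, with 16 per-sample columns whose names fit none of the labels, were left out. Because column numbers start at 0 and title numbers at 1, a column was matched to its group but not to a title.

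For the 14297 genes with at least 10 in at least 2 libraries, log2(scaled count + 3) was modelled by group alone in limma (3.58.1, R 4.3.3), with the prior variance following abundance. Tests were two-sided, with Benjamini-Hochberg adjustment over all of these genes and a threshold of 0.05. The fit was tested on simulated data. Coordinates are from GENCODE vM21, 1-based. All 10 genes are named; of related lists, those with the lowest p (6, 3 and 3). Of the degrading enzymes, Mmp12, Mmp7 and Elane failed the filter, 1 entry had no match, and Adamtsl2 of the assembly genes failed the filter. The genes and lists were chosen with earlier results of these data known. Alternatives were other scalings, pseudocounts, filters, FPKM, library weights, no trend, each library left out and, chosen after seeing the data, a block for the column number.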

Additional observations from a re-analysis of the deposited data

How the results depend on the processing

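Over 15 alternatives, 0 of the 10 genes passed an adjusted p of 0.05 in limma, and all but Fbn2 kept the sign of their log2 fold change. Fbn2 was at 0.16 without cKO_1 and lay between -0.52 and 0.16 when a library was left out. The median of the 10 was 0.25 to 0.40 when a library was left out and 0.23 to 0.34 otherwise. Median-of-ratios scaling moved the median of all genes by 0.10, to 0.02, and that of the 10 to 0.23; the 10 lay 0.22 above the median of all genes in the planned scaling and 0.14 to 0.31 above it in the alternatives. Without overlap, 5 to 7 of the 10 were higher and 1 to 3 lower when a library was left out, where 27.7% to 46.7% of all genes were higher and 26.8% to 32.8% lower, and 3 were higher in FPKM (pseudocount 1 or 0.1), where 11.2% of all genes were. With FPKM, limma called 3 genes of the table higher and 4 lower (pseudocount 1) or 1 and 1 (pseudocount 0.1). Leaving out a library gave 0 to 1061 genes called higher and 0 to 78 lower, most of them without cHet_0. No paired analysis by sample title was possible because the columns do not carry the titles' numbers. A replicate block by the number in the column name left 0 genes called higher and 0 lower. The differences between numbers 0 and 1 in cKO and in cHet correlated across genes at 0.05 in scaled counts, although libraries of the same number had a like FPKM per scaled count. The causes were not tested. Count tests on whole reads were planned but not run, since the scaled counts did not give whole reads. With 2 libraries a group, the median SE was 0.25 for the 10 genes and 0.74 over all genes, which limits what differences could pass.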
